A study of Mus with 12 samples.

Results

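The comparison described here is that of the injured against the contralateral kidney in wild-type mice, made on 6 of the 12 libraries of a study that pulled macrophages from mouse kidneys with an antibody to their surface antigen F4/80. The 6 libraries were chosen by their labels, genotype WT (Aif-1+/+), and came from 3 mice, numbered 12, 26 and 36, each of which gave a left kidney made ischemic for 30 min and an untouched right kidney, both taken at day 4. The other 6 libraries came in the same way from 3 mice without Aif-1 (KO, Aif-1-/-), and they enter only where the responses of the genotypes are set side by side. The contralateral kidney belonged to an operated animal and is not the kidney of an untreated or sham-operated mouse. The sources used here do not give the strain, sex or age of the mice, nor any processing batch. The p-values and standard errors below come from 3 mice, with the spread of each gene drawn toward a trend over all genes. They can therefore be smaller than a gene's own spread between the mice would give.

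A kidney whose blood flow has been stopped and restored loses tubule cells, draws in monocytes from the blood and then repairs. Monocytes follow chemokines such as Ccl2 through the receptor Ccr2, and in the tissue they become macrophages beside those that already lived there. Macrophages first release inflammatory signals and later take up dead cells and debris through complement, Fc and scavenger receptors. Cells that stick to the beads without F4/80, or debris of neighbouring cells, also give RNA to such a preparation.

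Each library was a set of counts of fluorescent barcodes on single RNA molecules for 768 probes, of which 734 were endogenous genes, 20 housekeeping genes, 6 positive and 8 negative controls. Total counts ran from 277656 to 904220 and endogenous counts from 136238 to 718260. Negative controls read between 10 and 58, and their mean plus 2 SD, a raw count of 54.3, is called the background threshold below. The mean count of 653 of the 734 genes reached it. Normalised counts are raw counts divided by each library's relative size, computed with TMM factors over the endogenous genes.

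The F4/80 gene Adgre1 and the macrophage growth factor receptor gene Csf1r lay far above background in all 6 libraries, and so did transcripts of kidney tubules. Raw Csf1r counts were 413, 387 and 448 in the contralateral kidneys of mice 12, 26 and 36 and 468, 405 and 466 in the injured ones. Raw Adgre1 counts were 314, 312 and 426, and 484, 428 and 600. Csf1r thus varied 1.21-fold over the libraries, while the geometric mean of the housekeeping genes varied 6.65-fold, from 136 to 901, highest in both libraries of mouse 12. Egf, a growth factor gene of the distal tubule, read 70041, 4270 and 15458 in the contralateral and 40678, 2324 and 762 in the injured kidneys. Klk1, the tissue kallikrein gene of the distal tubule, read 55136, 3387 and 12029, and 52527, 3167 and 2210. Klk1 and Egf together took 18.0%, 5.62% and 10.8% of endogenous counts in the contralateral kidneys and 13.0%, 3.57% and 1.85% in the injured ones, a smaller share in the injured kidney of each mouse. The housekeeping level of the injured kidney was 1.02, 1.30 and 0.631 times that of the contralateral kidney in mice 12, 26 and 36.

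**Figure D1:**
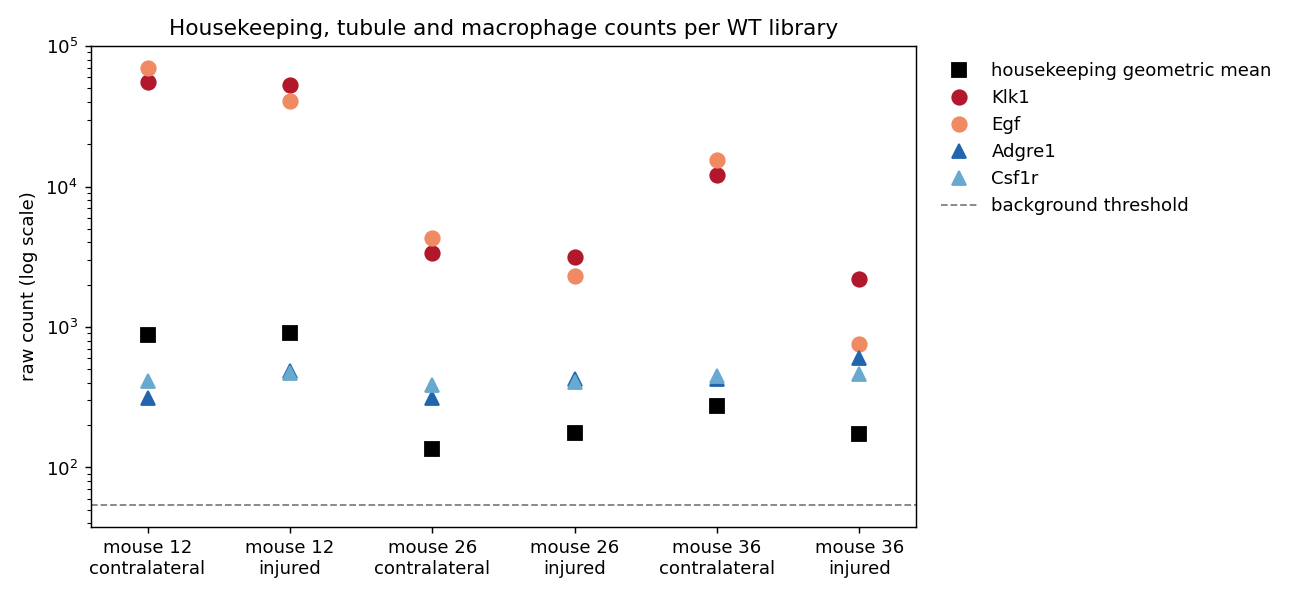
Raw counts (log scale) in each of the 6 wild-type libraries for the geometric mean of 20 housekeeping genes, the tubule genes Klk1 and Egf and the macrophage genes Adgre1 and Csf1r, with the background threshold of 54.3 dashed. The macrophage genes stay between 312 and 600, while Egf runs from 762 to 70041 and both libraries of mouse 12 carry the highest housekeeping and tubule counts.

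The markers of other blood cells named here read lower than Adgre1 and Csf1r. The neutrophil genes S100a8 and S100a9 read 81 to 222 and 61 to 284, highest in both kidneys of mouse 26, and Ly6g read 57 to 90. The B cell gene Ms4a1 read 103 to 140. The mast cell protease gene Cpa3 was below the background threshold in all 6 libraries (4 to 14), while Fcer1a, the IgE receptor gene of mast cells and basophils, was above it in all 6 (95 to 176). The dendritic cell genes Flt3 and Xcr1 were below it in 4 and 3 of 6. The endothelial gene Cdh5, no marker of blood cells, read 104 to 781, highest in mouse 12, where it exceeded Adgre1 and Csf1r. No marker chosen to define T cells or natural killer cells was among the measured genes. Aif1 read 57, 70 and 72 in the contralateral and 74, 95 and 85 in the injured kidneys, just above the threshold, with a log2 fold change of 0.21 ± 0.18 (SE, n = 3 mice) that did not pass the test (adjusted p = 0.60).

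Within mice, 32 genes rose and 21 fell in the injured kidney. The test was edgeR's quasi-likelihood test on these 6 libraries with the mouse as a block, and a gene was called at a Benjamini-Hochberg adjusted p under 0.05 over all 734 genes. Called genes were 7.22% of those tested, 4.36% higher and 2.86% lower, and 146 genes had an unadjusted p under 0.05. The counts of each gene list below stand against these shares, and no list was tested as a set. Log2 fold changes ran from 0.54 to 2.27 among the genes that rose, and from -0.51 to -1.28 among those that fell, against a median of -0.03 over all genes. The count depended on the pairing: without the mouse in the model no gene was called, and 8 had an unadjusted p under 0.05. In such bulk samples, more cells of a type and more RNA per cell cannot be told apart. A fit over all 12 libraries called 5 of these genes, Il1rn, Ccl2, Ccl9, Ccl5 and Ccl7, in the wild-type mice. The split of rises and falls depended on the scaling, with 44 higher and 6 lower when libraries were scaled to the housekeeping genes and 13 higher and 1 lower when scaled to the positive controls. These scalings moved the median of all genes to 0.20 and 0.10, and the 53 called genes kept their direction under both.

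Among interleukin-1 genes, the antagonist and one agonist rose. Il1rn encodes the interleukin-1 receptor antagonist, which occupies the receptor without signalling. It read 21, 24 and 16 raw counts in the contralateral kidneys of mice 12, 26 and 36 and 148, 53 and 133 in the injured ones. All contralateral values lay within the range of the negative controls, the injured value of mouse 26 lay just under the background threshold, and the groups did not overlap. The fitted log2 fold change was 2.27 ± 0.23 (SE, n = 3 mice; adjusted p = 5.35e-17), the largest of the panel in these mice, and it is no exact fold because the contralateral signal is background. Without mouse 26 it was 2.90. The log2 differences of mice 12, 26 and 36 were 2.59, 0.73 and 3.26, more widely spread than the standard error of 0.23 conveys. Il1a encodes interleukin-1 alpha, an agonist released by damaged cells. Its counts went from 24, 12 and 18 to 53, 29 and 57, of which 57 alone passed the threshold, and the fitted change was 1.25 ± 0.25 (adjusted p = 5.03e-05). Leaving out mouse 36 ended the call (adjusted p = 0.057). Il1b, the other agonist, was well measured, with 424, 422 and 410 in contralateral and 384, 286 and 399 in injured kidneys, and was not called (-0.39 ± 0.21, adjusted p = 0.27), though it passed without mouse 36 (-0.65, adjusted p = 0.0082). Of 10 measured genes of the family 2 rose and none fell, where 4.36% of the panel rose and 2.86% fell. The median of the family was 0.10.

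Of 21 C-C chemokine genes, 4 rose and none fell, where 4.36% of the panel rose and 2.86% fell. Ccl2 and Ccl7 encode ligands of the monocyte receptor Ccr2. Ccl2 went from 338, 163 and 247 raw counts to 803, 501 and 969, a rise in each mouse, with no overlap of the normalised values (2.76-fold; log2 1.47 ± 0.23, adjusted p = 8.83e-08). Ccl7 went from 54, 37 and 72 to 137, 102 and 167 (1.21 ± 0.17, adjusted p = 3.85e-09). Its contralateral counts stood around the background threshold, and the fitted change was 2.26 after the negative control mean was subtracted. Ccl9 encodes a ligand of Ccr1 in the mouse and Ccl5 a chemokine of T cells and monocytes. Ccl9 went from 148, 112 and 155 to 403, 267 and 480 (1.31 ± 0.19, adjusted p = 3.85e-09). Ccl5 went from 116, 36 and 39 to 352, 72 and 103 (1.25 ± 0.17, adjusted p = 1.34e-09), with mouse 12 above the others in both kidneys, and its fitted change after the same subtraction was 2.28. Each of these 4 was called whichever mouse was left out. In the mouse reference assembly GRCm38.p6, Ccl2 and Ccl7 are direct neighbours, as are Ccl5 and Ccl9, with no other protein-coding gene between them.

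None of the other C-C chemokine genes was called, and the median of the list was 0.12. Ccl3, named after its values were seen, encodes macrophage inflammatory protein 1 alpha. It read 2510, 1642 and 1770 in contralateral and 1354, 1138 and 1431 in injured kidneys. Each injured value lay below the contralateral value of its mouse and the normalised values of the groups did not overlap, and the fitted change of -0.72 ± 0.32 did not pass (adjusted p = 0.17). Without mouse 36 it passed (-1.01, adjusted p = 3.59e-06), in a fit of fewer mice that adds no support to a fall.

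**Figure D2:**
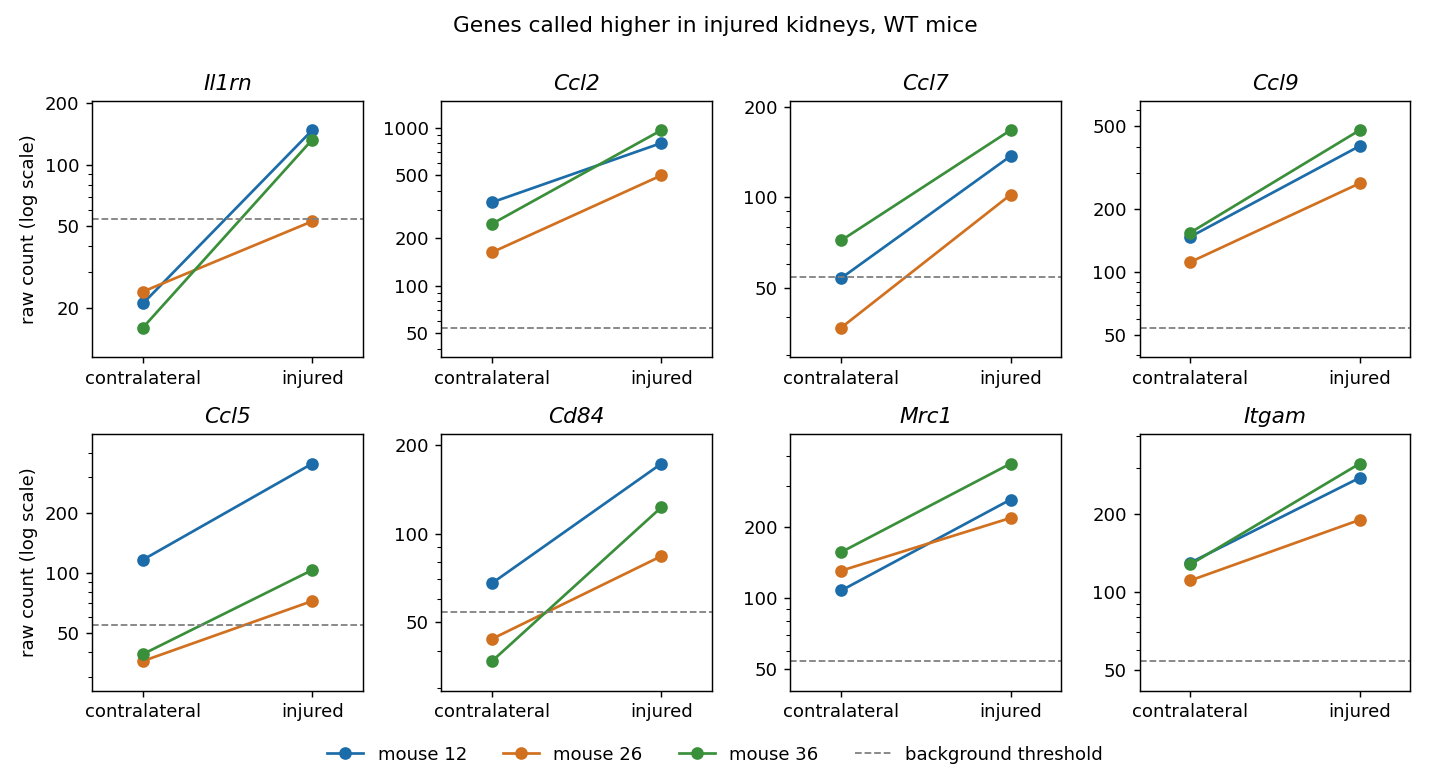
Raw counts (log scale) of 8 genes called higher in the injured kidney, with a line joining the kidneys of each of the 3 wild-type mice and the background threshold of 54.3 dashed. Every line rises, and the contralateral values of Il1rn (16 to 24) lie below the threshold, as do some of Ccl7, Ccl5 and Cd84.

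Of 13 C-X-C and CX3C chemokine genes, 3 rose and 1 fell, where 4.36% of the panel rose and 2.86% fell. Cxcl1, which attracts neutrophils, went from 487, 103 and 185 to 1038, 173 and 314 (0.74 ± 0.20, adjusted p = 0.0047). Pf4, platelet factor 4, went from 73, 62 and 70 to 107, 91 and 179 (0.72 ± 0.17, adjusted p = 0.0014), and without mouse 36 its change was 0.26 (adjusted p = 0.71). Cxcl9, an interferon-gamma target that attracts T cells, rose by 0.56 ± 0.16 (adjusted p = 0.010) but lost its call without mouse 12 or 36 (adjusted p = 0.24 and 0.18). Cxcl1 lost its call without mouse 12 (adjusted p = 0.099). Cxcl12, the ligand of Cxcr4 made by stromal and tubule cells, fell by 0.70 on the log2 scale, with normalised counts of 312, 89.9 and 145 in the contralateral and 270, 60.3 and 41.3 in the injured kidneys. The fall was largest in mouse 36, and leaving that mouse out ended the call (adjusted p = 0.55). Neither the neutrophil list (none of 16 called, median -0.05, summed normalised counts of 951 to 2616 in contralateral and 841 to 2347 in injured kidneys) nor the T cell list (none of 6, median -0.01) held a called gene.

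Of 18 chemokine receptor genes, Ccr2 alone was called, a rise, which is near the 4.36% of the panel that rose. It read 167, 166 and 237 in the contralateral and 361, 320 and 377 in the injured kidneys (0.76 ± 0.18, adjusted p = 0.0016). Raw counts were higher in each injured kidney, while the normalised counts of the groups overlapped. Leaving out mouse 12 ended the call of Ccr2 (adjusted p = 0.17). The fractalkine receptor gene Cx3cr1 did not pass (0.45 ± 0.19, adjusted p = 0.13) except with housekeeping scaling (0.68, adjusted p = 0.0078), and the list had a median of 0.09.

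Of 22 inflammatory cytokine and mediator genes, 3 rose and none fell, where 4.36% of the panel rose and 2.86% fell. Osm and Lif encode cytokines of the interleukin-6 family that signal through the shared receptor chain gp130, and they are direct neighbours in GRCm38.p6. Osm went from 44, 50 and 67 to 106, 87 and 107 (0.77 ± 0.18, adjusted p = 0.0014), and Lif from 156, 52 and 115 to 286, 95 and 157 (0.60 ± 0.16, adjusted p = 0.0045). The contralateral Osm counts of mice 12 and 26 were below the background threshold, and its change was 1.59 after subtraction of the negative control mean. Ptgs2 encodes cyclooxygenase 2, an enzyme of prostaglandin synthesis. It went from 129, 100 and 105 to 248, 116 and 215 (0.62 ± 0.16, adjusted p = 0.0042). In mouse 26 its normalised count was lower in the injured kidney, and it was the gene among the 32 that did not rise in all 3 mice. Both Lif and Ptgs2 lost the call when mouse 12 (adjusted p = 0.058 and 0.083) or mouse 36 (adjusted p = 0.065 and 0.47) was left out. The list as a whole had a median of -0.07, and Vegfa, the endothelial growth factor gene, stood at -0.65 ± 0.24 (adjusted p = 0.068), where DESeq2 called it (adjusted p = 0.024).

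Of 21 macrophage identity genes, 6 rose and none fell, and the selection marker Adgre1 was not among them (0.38 ± 0.21, adjusted p = 0.30). Scaled to the housekeeping genes, Adgre1 was called higher (0.61, adjusted p = 0.037). Csf1r stood at -0.04 ± 0.21 (adjusted p = 0.95), and its sign changed with the scaling, to 0.19 with housekeeping and 0.10 with positive control scaling. Cd84, a receptor of the SLAM family on leukocytes, went from 68, 44 and 37 to 173, 84 and 123 (1.20 ± 0.18, adjusted p = 5.95e-08), with no overlap. Its contralateral counts in mice 26 and 36 were below the background threshold, and the change was 2.30 after subtraction. Itgam, the integrin chain CD11b, went from 130, 111 and 128 to 276, 190 and 313 (0.92 ± 0.17, adjusted p = 6.02e-06). The mannose receptor gene Mrc1 went from 108, 131 and 157 to 262, 219 and 372 (0.96 ± 0.17, adjusted p = 6.02e-06). Cd68, a lysosomal membrane protein of phagocytes, rose by 0.71 ± 0.17 (adjusted p = 0.0020), and Tyrobp, the adaptor through which Trem2 signals, by 0.71 ± 0.23 (adjusted p = 0.040). Cd84, Itgam and Mrc1 were called whichever mouse was left out, Cd68 was not without mouse 12 or 36 (adjusted p = 0.074 and 0.086), and Tyrobp was not without any one of them (adjusted p from 0.066 to 0.33). The summed normalised counts of the list ran from 3745 to 5772 in contralateral and from 4384 to 7416 in injured kidneys, so the groups overlapped.

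Of 11 complement genes, the 4 that rose encode receptors or their chains. Itgam and Itgb2 encode both chains of complement receptor 3, which binds fragments of C3 on particles, and Itgb2 rose by 0.55 ± 0.16 (adjusted p = 0.015). C3ar1 and C5ar1, receptors for the anaphylatoxins C3a and C5a, rose by 0.59 ± 0.19 and 0.54 ± 0.17 (adjusted p = 0.040 and 0.030). C3ar1 went from 230, 220 and 276 to 406, 337 and 467, and C5ar1 from 159, 146 and 194 to 225, 227 and 361. The subunits of the recognition protein C1q were among the more abundant genes and did not pass. C1qb read 1197, 761 and 1105 in contralateral and 2097, 1253 and 1853 in injured kidneys (0.61 ± 0.30, adjusted p = 0.23), with no overlap after normalisation, and C1qa (0.54 ± 0.27) and C1qc (0.62 ± 0.27) were each higher in 3 of 3 mice. All 3 were called with housekeeping scaling (adjusted p = 0.013, 0.014 and 0.0054 for C1qa, C1qb and C1qc), and C1qc also by DESeq2 (adjusted p = 0.0499). These C1q genes were named after their values were seen. The median of the list was 0.54. C3ar1 and C5ar1 were lost without any one mouse (adjusted p from 0.051 to 0.60), and Itgb2 without mouse 12 or 36 (adjusted p = 0.11 and 0.32).

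Of 8 measured genes on the Fc receptor list, which also holds signalling partners, 3 rose, where 4.36% of the panel rose. Fcgr1 encodes the high-affinity IgG receptor and went from 145, 119 and 131 to 268, 200 and 253 (0.72 ± 0.16, adjusted p = 6.36e-04). Fcgr3 encodes an activating receptor of lower affinity and went from 110, 115 and 143 to 254, 173 and 202 (0.63 ± 0.16, adjusted p = 0.0028). Tyrobp, the adaptor given above and no Fc receptor itself, was the third. Fcgr1 lost the call without mouse 36 (adjusted p = 0.085) and Fcgr3 without mouse 12 (adjusted p = 0.24).

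Of 17 genes of alternative activation, 3 rose, Mrc1, Trem2 and Stab1, where 4.36% of the panel rose. Trem2 encodes a lipid-sensing receptor of phagocytes. It went from 72, 66 and 90 to 164, 122 and 165 (0.85 ± 0.16, adjusted p = 1.91e-05). Stab1, which encodes the scavenger receptor stabilin-1, went from 302, 145 and 199 to 488, 288 and 474 (0.83 ± 0.19, adjusted p = 0.0011) and lost the call without mouse 36 (adjusted p = 0.059). Arg1, the arginase gene often used to mark alternative activation, stood just above the background threshold and was not called, at 62, 61 and 61 against 82, 88 and 98 (0.40 ± 0.18, adjusted p = 0.18). The median of the list was 0.13. Of 9 lipid handling genes, 2 rose, Apoe and Trem2, and 2 fell, one of them Lpl. Apoe, the gene of a lipid carrier protein, went from 968, 642 and 588 to 2593, 1068 and 1339, with no overlap (0.97 ± 0.29, adjusted p = 0.018). Leaving out mouse 12 or 26 ended its call (adjusted p = 0.33 and 0.077).

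Of 19 matrix and growth factor genes, Fn1 and Hgf rose and Mmp13 and Mmp12 fell. Fn1 encodes fibronectin, a matrix protein also made by monocytes. It went from 171, 64 and 105 to 282, 149 and 161 (0.69 ± 0.16, adjusted p = 7.60e-04) and was called whichever mouse was left out. Hgf, the hepatocyte growth factor gene, read 29, 36 and 37 against 63, 57 and 60, near background (0.68 ± 0.21, adjusted p = 0.026), and lost the call without mouse 12 or 36 (adjusted p = 0.13 and 0.27).

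Mmp13, a collagenase gene, had raw counts of 409, 343 and 445 in contralateral and 186, 244 and 202 in injured kidneys. All raw values of the injured group lay below all of the contralateral group, while the normalised ones overlapped. Raw counts carry library size, and the share of the panel with such a raw separation is not given here. The change was a fall to 0.477 times the contralateral level (-1.07 ± 0.19, adjusted p = 6.02e-06). Leaving out mouse 12 ended the call (adjusted p = 0.10). Mmp12, the macrophage elastase gene and the direct neighbour of Mmp13 in GRCm38.p6, read 262, 233 and 261 against 155, 201 and 207, with the same separation of raw values, and fell to 0.671 times (-0.58 ± 0.17, adjusted p = 0.019). Its call ended when mouse 12 or 26 was left out (adjusted p = 0.55 and 0.17).

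Tubule genes moved in opposite directions. Of 6 measured, Havcr1 rose and Fbp1 and Enpp2 fell. Havcr1 encodes kidney injury molecule 1, made by damaged proximal tubules. It went from 77, 78 and 102 to 179, 144 and 200 raw counts (0.89 ± 0.16, adjusted p = 6.02e-06) and was called whichever mouse was left out. Fbp1, a gluconeogenic enzyme gene of the proximal tubule, read 513, 36 and 73 against 171, 39 and 34. In mice 26 and 36 it stood at or near background and the fall to 0.411 times (-1.28 ± 0.18, adjusted p = 3.77e-09) lost the call without mouse 12 and was then -0.58 (adjusted p = 0.17). Enpp2, which encodes autotaxin, the enzyme that makes lysophosphatidic acid, read 791, 98 and 197 against 510, 85 and 67 (-0.94 ± 0.18, adjusted p = 3.74e-05). It was the gene among the 21 that stayed called whichever mouse was left out. Egf (-2.07 ± 0.74, adjusted p = 0.066), Klk1 (-0.999 ± 0.68, adjusted p = 0.45) and Cdh1 of epithelial junctions (-0.75 ± 0.33, adjusted p = 0.17; named after its values were seen) did not pass, though each was lower in 3 of 3 mice after normalisation. Egf passed with housekeeping scaling (-1.86, adjusted p = 0.014), with a filter on low counts (-2.03, adjusted p = 0.027), without mouse 12 (-2.68, adjusted p = 0.046) and without mouse 36, where its change was -1.13 (adjusted p = 3.09e-07). Klk1 was -0.38 without mouse 36 (adjusted p = 0.30). The median of the list was -0.97.

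The genes that fell shared a feature apart from their direction, high counts in mouse 12. In 19 of the 21 the raw contralateral count of mouse 12 was at least 2 times the mean of the other 2 mice, as it was in 3 of the 32 genes that rose and in 40.7% of all genes. The median ratio was 4.47 for the genes that fell, 1.11 for those that rose and 1.52 over the panel. For Mmp13 and Mmp12 it was 1.04 and 1.06. Mouse 12 also had the highest Klk1, Egf and housekeeping counts, and their part in these falls was not tested.

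Lpl, the lipoprotein lipase gene, had normalised counts of 2779, 511 and 1046 in contralateral and 1689, 350 and 309 in injured kidneys (-1.002 ± 0.29, adjusted p = 0.015). Enpep encodes aminopeptidase A of the brush border and had 999, 215 and 282 against 642, 147 and 119 (-0.80 ± 0.21, adjusted p = 0.0056). In both genes the kidneys of mouse 12 were above all the others, so the groups overlapped, while the injured kidney was the lower one in every mouse. Cytip, which binds the adhesion regulator cytohesin 1, fell by 0.74 on the log2 scale, and the kinase gene Mok by 0.80. Fgfr1, a fibroblast growth factor receptor gene, fell by 0.66. Nr2f6, an orphan nuclear receptor gene, fell by 0.66, Eif4ebp2, a repressor of translation, by 0.66, and Arhgef28, a guanine nucleotide exchange factor gene, by 0.68. Vamp2 of vesicle fusion and the ubiquitin ligase gene Peli1 fell by 0.65 and 0.61. The other 5 falls, Acot11, Nox4, Tfcp2, Smarcd3 and Coasy, lay between -0.54 and -0.51.

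Before normalisation the counts were lower in the injured kidney of all 3 mice in 13 of the 21 genes, and higher in all 3 mice in each of the 32 that rose. Raw counts also carry library size, which in the injured kidney was 1.17, 1.33 and 0.869 times the contralateral in mice 12, 26 and 36. The share of the panel with such raw directions is not given here. Scaled to the housekeeping genes, 5 of the 21 stayed called, namely Fbp1, Mmp13, Lpl, Enpp2 and Enpep, and Fbp1 alone did so when scaled to the positive controls. The count of falls was 8 without mouse 26, and 10, 8 and 9 of the 21 were called again without mouse 12, 26 and 36. Leaving out mouse 26 lost Lpl (adjusted p = 0.20), Enpep (0.089), Cytip (0.063), Nr2f6 (0.30), Eif4ebp2 (0.058), Arhgef28 (0.19), Vamp2 (0.15) and Peli1 (0.21). Leaving out mouse 12 lost Lpl (0.071), Cytip (0.0995), Nr2f6 (0.11) and Vamp2 (0.065), and leaving out mouse 36 lost Mok (0.057), Fgfr1 (0.32), Nr2f6 (0.056), Eif4ebp2 (0.086), Arhgef28 (0.10), Vamp2 (0.22) and Peli1 (0.64), all adjusted p-values of the same test. Of the 5 smallest falls, Nox4 was lost without mouse 12 (0.86), Acot11 without mouse 12 or 36 (0.76 and 0.057), Tfcp2 without mouse 26 or 36 (0.24 and 0.40), Smarcd3 likewise (0.15 and 0.65), and Coasy without any one mouse (from 0.17 to 0.26).

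**Figure D3:**
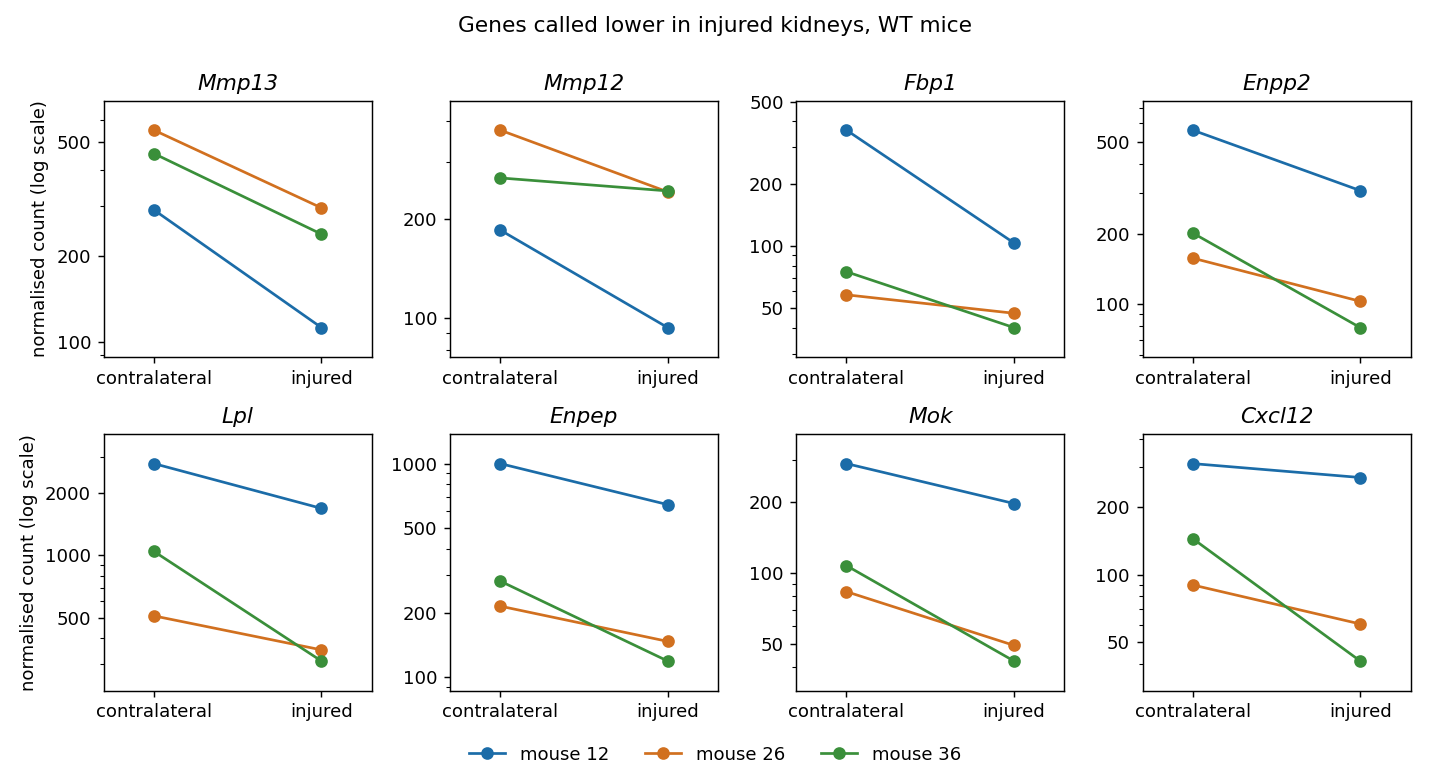
Normalised counts (log scale) of 8 genes called lower in the injured kidney, with a line joining the kidneys of each of the 3 wild-type mice. Each line falls, mouse 12 lies below the others for Mmp13 and Mmp12 and far above them for the other 6 genes.

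None of 9 genes of MHC class II presentation was called in the fit of all 3 mice, and the list had a median of -0.25. H2-Aa, which encodes the alpha chain of I-A, read 3827, 3269 and 4175 raw counts in contralateral and 3575, 1753 and 1769 in injured kidneys. After normalisation the injured values were 2156, 2115 and 2087, and the contralateral ones 2709, 5250 and 4279, a separation without overlap that did not pass (-0.89 ± 0.39, adjusted p = 0.16). H2-Eb1 (-0.84 ± 0.33, adjusted p = 0.10) and H2-Ab1 (-0.66 ± 0.34, adjusted p = 0.25), chains of I-E and I-A, also had groups that did not overlap, and the invariant chain gene Cd74, named after its values were seen, was lower in 3 of 3 mice (-0.73 ± 0.49, adjusted p = 0.45). Without mouse 36 all 4 passed, H2-Aa at -0.80, H2-Eb1 at -0.80, H2-Ab1 at -0.58 and Cd74 at -0.71 (adjusted p = 0.0013, 8.36e-04, 0.033 and 0.0055), and DESeq2 called H2-Aa and H2-Eb1 (adjusted p = 0.021 and 0.018). The protease gene Ctss, which cuts the invariant chain, had the opposite sign (0.63 ± 0.24, adjusted p = 0.095) and was called with housekeeping scaling and by DESeq2 (adjusted p = 0.0018 and 0.033). Over the panel, 1.91% of genes were below in the injured kidneys without overlap and 2.18% above. Among the called genes, 11 of the 32 that rose and none of the 21 that fell were free of overlap.

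The remaining lists held few called genes, where 4.36% of the panel was called higher and 2.86% lower. A single call in such a list is no sign of a response of the list. Tlr8, a sensor of RNA in endosomes, rose by 0.62 ± 0.16 (adjusted p = 0.0047) among 15 toll-like receptor and adaptor genes, from 68, 69 and 85 to 108, 116 and 151, and lost the call without mouse 36 (adjusted p = 0.39). Of 13 interferon response genes Cxcl9 was called, of 9 monocyte genes Ccr2 and Fn1, of 9 endothelial and platelet genes Pf4, and of 12 scavenging, phagocytosis and lysosome genes Trem2 and Stab1. None was called among 13 MHC class I, 14 immediate early and stress, 8 inflammasome and cell death (Nlrp3 at 0.31 ± 0.16, adjusted p = 0.25), 12 dendritic cell, 17 mast cell, basophil and eosinophil, 5 cell cycle and 4 fibroblast genes. The immediate early list had a median of -0.33, with 0.08, -0.40 and -0.73 in mice 12, 26 and 36. Among genes on no list, Selplg, the selectin ligand gene of leukocytes, rose by 0.61 ± 0.16 (adjusted p = 0.0042) and Mpeg1, the perforin-2 gene of macrophages, by 0.63 ± 0.19 (adjusted p = 0.022). Selplg lost the call without mouse 36 (adjusted p = 0.17), and Mpeg1 without mouse 12 or 36 (adjusted p = 0.24 and 0.19).

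**Figure D4:**
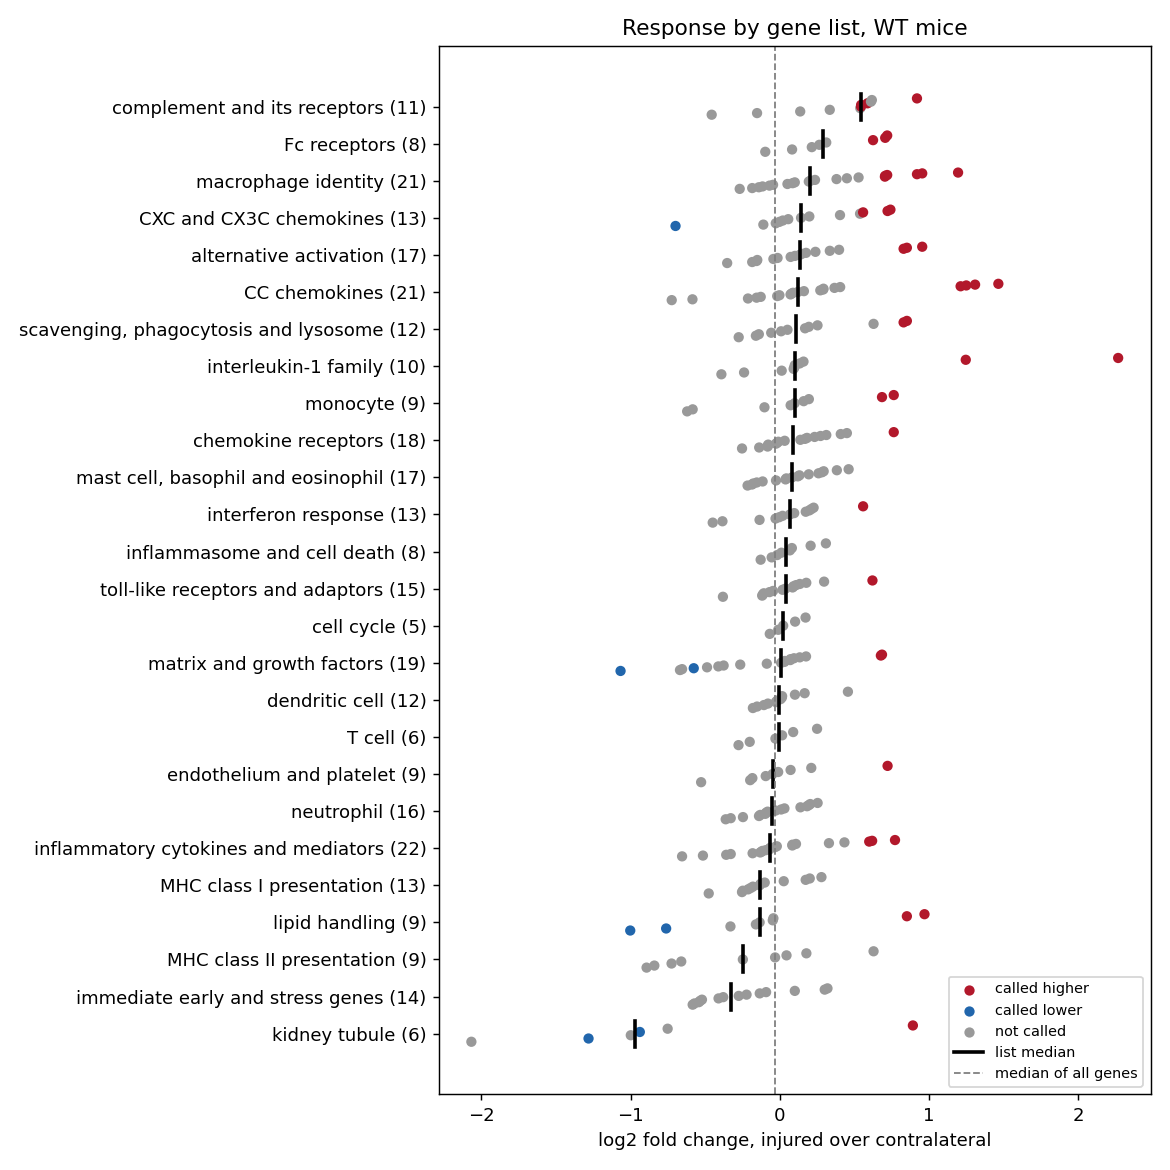
Log2 fold changes, injured over contralateral, of the measured genes of each list with at least 5 of them (number in brackets), in red where called higher, blue where called lower and grey where not called, with the list median in black and the median of all genes dashed. The complement list has the highest median (0.54) and the kidney tubule list the lowest (-0.97), and the C-C chemokine and interleukin-1 lists each hold a few called genes far to the right of a median near 0.1.

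The size of the response differed between the 3 mice. Of the 32 genes that rose, 28 rose most in mouse 36, 4 in mouse 12 and none in mouse 26, and 29 rose least in mouse 26. Their median log2 differences were 0.86, 0.36 and 1.14 in mice 12, 26 and 36. Of the 21 that fell, 16 fell most in mouse 36 and 5 in mouse 12, with medians of -0.58, -0.55 and -1.08. These sizes depend on the scaling. In mouse 36 the injured library was 0.869 times the contralateral one by TMM size and 0.631 times by the housekeeping genes. Housekeeping scaling would raise the differences of all 3 mice, most in mouse 36, and so shrink its falls. Mouse 36 was also the mouse whose injured library held less RNA by the housekeeping genes and whose Klk1 and Egf share was 10.8% in the contralateral and 1.85% in the injured kidney, and the part of either in the size of the response was not tested. The rise was seen in all 3 mice in 31 of the 32 genes, against 15.5% of the panel, and the fall in 20 of the 21, Nox4 excepted, against 25.9% of the panel. These shares come from the values the test used and describe it.

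In the 3 KO mice, which share no kidney with the wild type, 31 of the 32 genes had a positive response, with Cxcl9 (-0.04) as the exception. Their median was 1.44 in KO mice fitted alone and 0.73 in the wild type, where the medians of all genes were -0.04 and -0.03. In the KO fit 19 of the 32 were called higher, where 3.27% of the panel was, and 30 of the 32 rose in 3 of 3 KO mice, against 16.3% of the panel. Il1rn responded by 2.57 ± 0.40 in KO and 2.27 ± 0.23 in wild-type mice, Ccl5 by 1.40 ± 0.36 and 1.25 ± 0.17, and Il1a by 2.78 ± 0.45 and 1.25 ± 0.25 (SE, n = 3 mice each). Of the 21 genes that fell in wild-type mice, 14 had a negative response in KO mice, with a median of -0.16. Negative responses were common there, as the median of all genes was -0.04. The shares of the panel with a positive or a negative response are not given here. In 3 of 3 KO mice 5 of the 21 fell, against 15% of the panel. None of the 21 was called in the KO fit, as 0% of the panel was called lower. Mmp13 stood at -0.83 ± 0.42 and Fbp1 at -0.69 ± 0.43 there.

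The difference of the responses itself, tested as an interaction over all 12 libraries with the mouse as a block, passed for 0% of the genes. The smallest adjusted p was 0.41, and 79 genes had an unadjusted p under 0.05. DESeq2 and limma also called none. This count rests on KO mouse 32: without it 335 of the 734 genes were called, 138 higher and 197 lower in KO. Among them were 15 of the 32 genes that rose in wild-type mice and 9 of the 21 that fell. Both shares were close to that of all genes, but the directions were not. Of the 15, 14 were higher in KO, as were 9 of the 9, while over the panel more genes were lower than higher. Both sets were chosen on wild-type values that also enter this difference. Housekeeping counts of the injured kidney of that mouse were 0.749 times those of its contralateral kidney, against 4.28 and 1.89 times in KO mice 17 and 23, and the part of that gap in the difference was not tested.

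**Figure D5:**
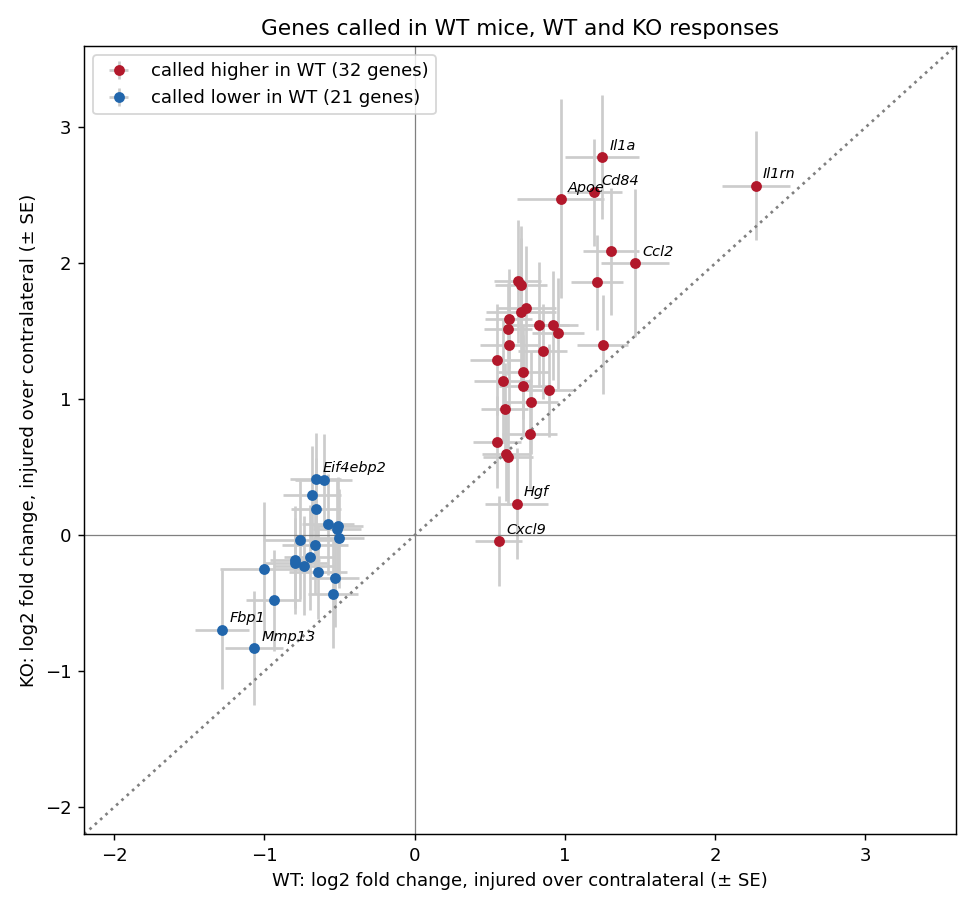
Log2 fold change, injured over contralateral, in 3 wild-type mice (x axis) and in 3 KO mice fitted alone (y axis) for the 32 genes called higher (red) and the 21 called lower (blue) in the wild type, with standard errors in grey and the line of equal response dotted. Cxcl9, at -0.04 in KO mice, is the one red gene below 0 on the y axis, and the blue genes lie between -0.83 (Mmp13) and 0.42 (Eif4ebp2) on it.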

How the data were processed

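The deposited table held raw counts: its values for 768 probes are whole and the library totals differ. Cells were bound with a biotin-labelled F4/80 antibody, RNA was isolated by column and counted by the NanoString protocol, per the labels. The sources used here name neither the panel nor the cartridges nor the software. The members and gene lists were chosen with earlier results of these data known.

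The 6 wild-type libraries were fitted alone on all 734 endogenous genes with edgeR 4.0.16 (R 4.3.3), TMM factors and the mouse as a block, after a check of the script on simulated counts. The block rests on the shared animal. Deviations of a mouse's kidneys from their group means correlated at 0.95, 0.86 and 0.67 across genes in mice 12, 26 and 36. No replicates agreed within sampling noise (chi-square per degree of freedom at least 5.61). Between mice 26 and 36 this value was 5.61 in injured and 15.2 in contralateral kidneys. In pairs with mouse 12 it ran from 106 to 197. A standard error is the size of the log2 change divided by the root of its F statistic, so it too rests on a spread drawn toward the trend over all genes. The 20 housekeeping genes were taken by a list of names. The fit of KO mice alone used the same model.

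Named genes were Aif1, Adgre1, Klk1, Egf, the 15 largest rises and 15 largest falls among called genes whose mean count reached the background threshold, and the members of each list with the lowest p-values (at most 4). All other names (among them Csf1r and other defining markers, Selplg, Mpeg1 and the 5 smallest falls) were given after their values were seen. Of 754 gene probes, 744 matched a symbol and 9 a synonym in RefSeq's GRCm38.p6 table. Probe sequences were not used here. Some called or listed genes are counted in the totals and are not reported here by name. Alternatives covered scaling, a filter on low counts, background subtraction (floor of 1 count), DESeq2 1.42.0, limma 3.58.1 (prior count 1), the block, the samples fitted and each mouse left out. Precision is limited by 3 mice.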

Additional observations from a re-analysis of the deposited data

Results flagged for a closer look

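Eif4ebp2, the gene of a translation repressor, fell in the injured kidney of all 3 wild-type mice (-0.66) and was higher in that of all 3 KO mice (0.42 in KO mice fitted alone), so that every mouse of one genotype moved against every mouse of the other. The gene was found by a search for such opposition among the called genes and others chosen for the text. The share of the panel with such opposition is not given here. The difference of the responses was 1.06 on the log2 scale (KO minus wild type) and did not pass over all genes (edgeR adjusted p = 0.41). The wild-type fall was not called with housekeeping or positive control scaling (edgeR adjusted p = 0.18 and 0.91), nor without mouse 26 or 36. Groups of 3 libraries were too small to look for single outlying samples.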

How the results depend on the processing

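All 53 called genes kept their direction under each alternative in which they were tested. With a filter on low counts, DESeq2 size factors, DESeq2 or limma the counts stayed within 1.5 times of 53 (32 higher, 21 lower), although DESeq2 called 36 of the same 53 genes. Positive control scaling gave 14 (13 and 1), background subtraction 32 (22 and 10), and housekeeping scaling 50, of which 6 were lower. No replicate block gave 0 (0 and 0, 8 genes at an unadjusted p under 0.05, all higher), and the fit over all 12 libraries 5 (5 and 0). With a mouse left out, the count ran from 35 to 37, from 16 to 29 for genes higher and from 8 to 19 for genes lower. In all 3 of these fits 12 of the 32 and 1 of the 21 were called. Each wild-type fit with a mouse left out held 2 mice. Some genes not called with 3 mice passed there, and such a pass adds no support. For Csf1r, not called, the sign turned to 0.19 with housekeeping scaling, 0.10 with positive control scaling, and from -0.18 to 0.10 with a mouse left out (0.10 without mouse 26). The difference between genotypes counted 0 genes, 2 with positive control scaling (Cxcl3 and Il1a), and from 0 to 335 with a mouse left out (335 without KO mouse 32, 1 without KO mouse 17). It stayed at 0 with no replicate block. The cause was not tested for any of these moves. Counts near the negative controls (Il1rn, Il1a, Ccl7, Ccl5, Cd84, Osm, Hgf, Fbp1 in mice 26 and 36) give no exact fold.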
